A study of Mus musculus with 20 samples.

Results

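The 10 genes described here are long non-coding RNAs that carry small nucleolar RNAs (snoRNAs) inside them: Gas5, Snhg1, Snhg3, Snhg5, Snhg6, Snhg8, Snhg12, Snhg15, Zfas1 and Epb41l4aos. They are the rows of the gene count table whose Ensembl identifiers carry these symbols, 10 of 51826 rows. The rule that lists them uses no measured value, but they were chosen with earlier results of these data known. They were followed in mouse sarcoma, in 6 primary tumours (P1 to P6) and 14 lung metastases, each metastasis matched by its title with 1 primary tumour. A primary tumour with its metastases is called a set: sets 1 and 2 had 4 metastases each, sets 3 and 6 had 2 each, and sets 4 and 5 had 1 each (M3-2 is metastasis 2 of set 3, and M5-x is the metastasis of set 5, which has no number). The genotype label gives a mixed background for every animal and names no allele, and no label gives age, sex, tumour site or treatment. Whether libraries came from different animals is not labelled either, and p-values therefore cover the spread among libraries, which may be partly technical. Libraries held 20603620 to 36824370 counts, and the levels below are CPM, the counts of a gene per 1000000 counts of its library, with library totals scaled by the trimmed mean of M-values (TMM).

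A snoRNA guides chemical modification or processing of other RNAs, mostly ribosomal RNA, and in mammals most snoRNAs are cut out of the introns of a host transcript. A host RNA of this kind is spliced, and what is left of it after splicing is often read by a few ribosomes and then degraded by nonsense-mediated decay, so its level reflects both synthesis and decay. Many host genes, like those of ribosomal proteins, start transcription within a stretch of pyrimidines, the feature behind 5′ terminal oligopyrimidine (TOP) mRNAs, whose translation follows mTOR signalling. Gas5 was named for its accumulation in growth-arrested cells, and Zfas1 for its position antisense to Znfx1.

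Start regions of 8 of the 10 genes were found in RefSeq (GRCm38.p6), with a pair of starts for Gas5 and so 9 in all. Snhg6 and Epb41l4aos had no entry. Printed here, on the transcribed strand, are the 40 bases before and the 50 bases from the start for the 4 genes that held both motifs searched, and for Snhg1, the member of widest range, which held neither. Capitals mark a C followed by at least 4 pyrimidines, beginning between 10 bases before and 20 after the start, and a TATAAA or TATATA within the 40 bases before it. The transcribed strand alone was searched.
Gas5, second start, chr1:161035126-161035215, plus strand: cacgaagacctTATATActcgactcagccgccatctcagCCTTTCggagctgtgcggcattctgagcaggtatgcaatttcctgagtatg
Snhg5, chr9:88522848-88522937, minus strand: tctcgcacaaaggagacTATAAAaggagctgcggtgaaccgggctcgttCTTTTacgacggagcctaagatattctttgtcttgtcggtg
Snhg8, chr3:123508287-123508376, minus strand: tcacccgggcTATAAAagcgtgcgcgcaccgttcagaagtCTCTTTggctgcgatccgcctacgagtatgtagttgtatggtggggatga
Snhg12, chr4:132308638-132308727, plus strand: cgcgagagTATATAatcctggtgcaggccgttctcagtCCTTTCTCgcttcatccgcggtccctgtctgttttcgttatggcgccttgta
Snhg1, chr19:8723447-8723536, plus strand: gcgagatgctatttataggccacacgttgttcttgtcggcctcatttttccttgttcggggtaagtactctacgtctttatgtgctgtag
The pyrimidine run stood in 5 of the 9 start regions (55.6%), the other one being that of Snhg3, beside 35.8% of 32851 start regions of all genes and 60.3% of 68 of ribosomal protein genes. TATAAA or TATATA stood in 4 of 9 (44.4%), beside 3.2% of all and 4.41% of ribosomal protein start regions. Both stood together in the same 4 of 9 start regions (44.4%) and in 1.3% of all start regions. A match is a run of letters, not a shown site, and the share in the members was not tested. The pyrimidine run after the start of Snhg1 does not match, because no C in it is followed by 4 pyrimidines.

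On the mm10 (GRCm38) build, Gas5 (ENSMUSG00000053332.13) lies on chromosome 1 from 161034422 to 161038539, and Snhg1 (ENSMUSG00000108414.1) on chromosome 19 from 8723475 to 8726443, both on the plus strand. Snhg5 (ENSMUSG00000097195.9) lies on the minus strand of chromosome 9 from 88521050 to 88522929. Zfas1 (ENSMUSG00000074578.13) lies on the plus strand of chromosome 2 from 167062934 to 167065862, and Snhg8 (ENSMUSG00000104960.1) on the minus strand of chromosome 3 from 123507552 to 123508404. Snhg12 and Snhg3 lie near each other on chromosome 4, on opposite strands, from 132308623 to 132311024 and from 132348014 to 132353686. Snhg6 is on chromosome 1 (9941959 to 9944118), Snhg15 on chromosome 11 (6525591 to 6528760) and Epb41l4aos on chromosome 18 (33794892 to 33795986). All are annotated as processed transcripts or lincRNAs. The merged exons of Snhg1, Snhg8, Snhg12 and Zfas1 form 1 unbroken block, so counts for these 4 genes take in spliced and unspliced RNA alike. Of the 986 exon bases of Snhg3, 705 are shared with Gm17300, which had 134 counts in all, on the opposite strand and 135 with Rcc1 on the same strand. Exons of Snhg6 share 127 bases with Mcmdc2 and those of Zfas1 share 82 with Znfx1 on the opposite strand, and Zfas1 shares 189 with Gm27494 on the same strand, which had 0 counts. Reads there may have been split or dropped, and how HTSeq treated strand is not given in the sources used here.

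P4 and P6 held far more of most host RNAs than any other library. Snhg1, host of Snord22 and 7 further snoRNA genes, reached 956 CPM in P4 and 510 CPM in P6, against 44.6 to 58.6 CPM in the other 4 primary tumours and 41.9 to 212 CPM in the 14 metastases (median 72.0). Gas5 stood at 444 and 333 CPM in P4 and P6, against 69.7 to 98.02 CPM in the other 4 and 42.8 to 133 CPM in the metastases (median 99.2). For both genes the 2 tumours lay above each of the other 18 libraries. Relative to the median of the other 4 primary tumours, P4 and P6 held 20.0-fold and 10.6-fold more Snhg1 and 5.37-fold and 4.02-fold more Gas5.

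Snhg5, host of Snord50a and Snord50b, stood at 351 CPM in P4 and 258 CPM in P6, against 32.5 to 36.9 CPM in the other 4 primary tumours and 34.5 to 113 CPM in metastases. Zfas1, host of Snord12, stood at 191 CPM in both, against 31.0 to 46.3 CPM in the other 4 and 43.9 to 77.6 CPM in metastases. The metastases of Zfas1 were thus close together, with a median of 70.4 CPM, between the pair of high primary tumours and the 4 low ones. Snhg12, host of Snora16a, Snora44, Snora61 and Snord99, stood at 56.1 and 79.0 CPM, against 13.8 to 14.5 CPM in the other 4 and 8.84 to 19.1 CPM in metastases. Snhg15, host of Snora9, stood at 30.7 and 24.03 CPM, against 6.74 to 9.19 and 5.64 to 15.2 CPM. In these 6 genes P4 and P6 were the 2 highest of 20 libraries.

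The other 4 members did not set P4 and P6 apart from every library. Snhg6, host of Snord87, was high in P4 (136 CPM) and equally in metastasis M2-3 (134 CPM), while P6 (33.8 CPM) lay among the metastases (12.3 to 133.7, median 23.7). Snhg3, host of Snora73a and Snora73b, ranged from 13.6 to 18.5 CPM in the 4 low primary tumours and stood at 42.2 CPM in P4, 41.7 CPM in M3-2 and 28.1 CPM in P6. Snhg8, host of Snora24, was highest in M1-3 (54.4 CPM) and P6 (43.9 CPM) and lowest in M3-2 (7.85 CPM), with P4 at 26.1 CPM. Epb41l4aos, the shortest member by exon length and the least variable, ran from 5.64 to 7.97 CPM in P1, P2, P3 and P5 and from 8.70 to 15.5 CPM in metastases, so these 4 tumours lay below each metastasis. P4 (16.5 CPM) and P6 (14.3 CPM) lay at the upper end for Epb41l4aos. P4 and P6 both exceeded the median of the other 4 primary tumours by at least 2-fold in 8 of 10 members, and in 9.47% of the 18452 genes tested. They were the 2 highest of 20 libraries in 6 of 10 members and in 8.03% of those genes. These libraries were singled out after their values were seen, so the counts are a description.

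**Figure D1:**
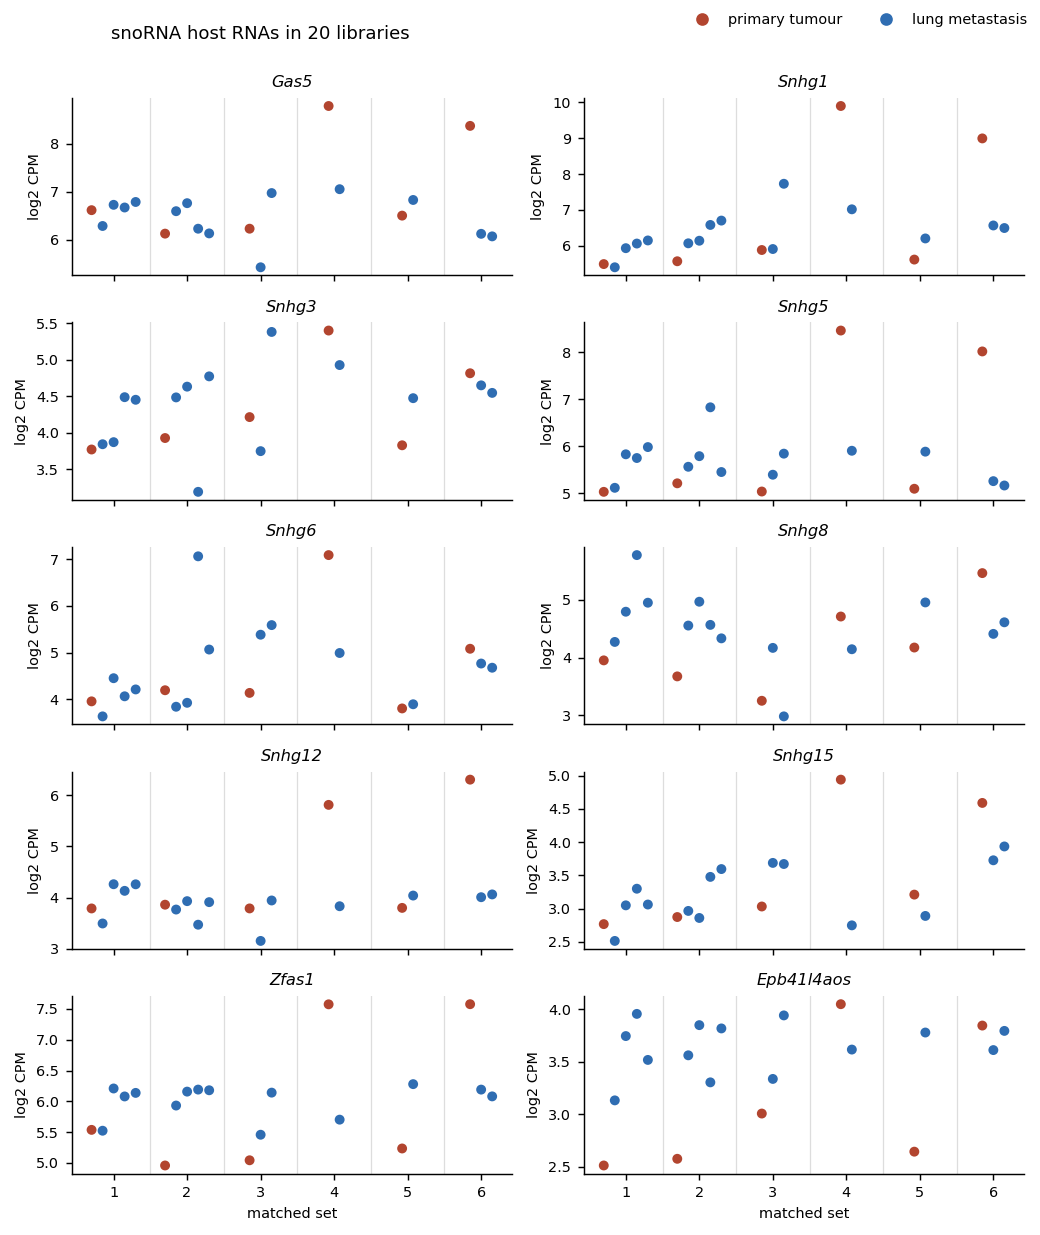
TMM-scaled log2 CPM (vertical axes) of each host RNA in the 20 libraries, ordered by matched set (horizontal axes); red points are primary tumours and blue points metastases, 1 point per library. P4 and P6 stand above all other libraries for Gas5, Snhg1, Snhg5, Snhg12, Snhg15 and Zfas1, with Snhg1 at 956 and 510 CPM.

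P4 and P6 also differed from the other primary tumours in several lists of markers of other cell types, and no label says whether these 2 tumours were handled like the rest. Summed over 12 skeletal muscle markers they had 9.74 and 2.39 CPM, against 4849 to 11295 CPM in P1, P2, P3 and P5 and 14.3 to 4031 CPM in metastases, and Ckm, Pvalb and Atp2a1 were at 0 in P6. Summed over 10 macrophage markers they had 27.6 and 134 CPM, against 3321 to 5523 CPM and 492.99 to 5111 CPM. Cd3e, Cd3d and Cd3g, which define T cells, were at 0 in both. The 12 T and NK cell markers summed to 6.58 and 8.48 CPM, against 104 to 298 CPM in the other 4 and 9.57 to 50.2 CPM in metastases. Of 9 B and plasma cell markers the sums were 1.61 and 1.25 CPM, against 16.996 to 166.2 CPM in the other 4 and 2.98 to 419 CPM in metastases. Of 8 erythroid markers they were 1.44 and 8.28 CPM, against 41.97 to 76.8 CPM and 27.7 to 9509 CPM. P6 lay within the other 4 for the sum of lung epithelial markers (82.8 CPM, against 64.5 to 108.6). The same held for the sum of 10 matrix and fibroblast markers (17348 CPM, against 13602 to 28741). P4 lay below them in both sums (7.60 and 7701 CPM). By mean log2 CPM, however, the 10 matrix and fibroblast markers were lower in P6 too (7.53, against 9.33 to 10.5 in the other 4). The part of these differences in the host RNA levels was not tested, and in bulk RNA a change in the share of a cell type cannot be told apart from a change in RNA per cell. P4 had a TMM factor of 0.712, against 0.932 to 1.10 in the other 19 libraries, which raises its CPM. With total counts alone as the scale, Snhg1 still stood at 680 CPM in P4 and 499 CPM in P6 against 45.4 to 61.6 in the other 4, and P4 and P6 were again the 2 highest libraries in 6 of 10 members.

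Levels per kilobase of merged exon were mostly close together among metastases. For Snhg1, Snhg8, Snhg12 and Zfas1 the merged exons have no gap for introns, which lengthens the divisor. The order of genes below therefore depends in part on the annotation. The mean was 31.3 ± 11.3 CPM per kb (SD, n = 14) for Snhg5, the highest, and 22.4 ± 3.69 CPM per kb for Zfas1, the eighth of the 10, with Snhg1, Snhg8, Epb41l4aos, Snhg6, Gas5 and Snhg3 between them. Neighbours in this order did not differ beyond their SD, with 1 exception: Zfas1 exceeded Snhg15 (7.24 ± 2.18 CPM per kb) in 14 of 14 metastases. Snhg12 was lowest at 6.22 ± 1.25 CPM per kb.

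Whether host RNA levels differ between lung metastases and their primary tumours was asked with edgeR's quasi-likelihood test, with the set as a block. None of the 10 members passed at an adjusted p under 0.05 (Benjamini-Hochberg over all genes), while 13.8% of the 18452 genes tested did, 7.34% higher and 6.44% lower in metastases. At an unadjusted p under 0.05, 1 member was higher, Epb41l4aos, and DESeq2 called that gene (1 of 10, beside 22.9% of all genes). Its level was 9.41 ± 4.75 CPM (SD, n = 6) in primary tumours and 12.6 ± 2.07 CPM (SD, n = 14) in metastases, a log2 fold change of 0.60 ± 0.244 (SE, edgeR adjusted p = 0.115). The lowest estimate was that of Snhg12, at -0.67 ± 0.322 (edgeR adjusted p = 0.179). The estimate for Gas5 was -0.55 ± 0.342, for Snhg1 -0.36 ± 0.517 and for Snhg5 -0.42 ± 0.511. For Zfas1 it was 0.05 ± 0.347, for Snhg3 0.26 ± 0.269, for Snhg6 0.19 ± 0.504, for Snhg8 0.30 ± 0.307 and for Snhg15 -0.23 ± 0.298, with adjusted p of 0.315 or more for each of these 8 (edgeR). The median over members was -0.09 and that over all genes tested was 0.00. Without the block, Snhg1 (-1.65 ± 0.519, edgeR adjusted p = 0.0377) and Snhg12 (-1.09 ± 0.325, adjusted p = 0.0299) fell, 2 of 10 beside 13.5% of all genes (6.84% lower).

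Those estimates average over sets that moved in opposite directions. In sets 1, 2, 3 and 5 the mean of the metastases was above the primary tumour for 10, 9, 8 and 9 of the 10 members, with median differences of 0.40, 0.74, 0.61 and 0.62 on the log2 CPM scale. In sets 4 and 6 it was below the primary tumour for 10 of 10 members, with medians of -1.93 and -1.20. Zfas1 differed by 0.45, 1.16, 0.76 and 1.04 in sets 1, 2, 3 and 5 and by -1.87 and -1.44 in sets 4 and 6. Snhg5 differed by 0.64, 0.70, 0.58 and 0.79, and by -2.56 and -2.81. Snhg1 differed by 0.40, 0.81, 0.94 and 0.59, and by -2.89 and -2.47. Gas5 and Snhg12 were nearly level in the first 4 sets, within -0.24 and 0.33, and differed by -1.74 to -2.28 in sets 4 and 6.

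**Figure D2:**
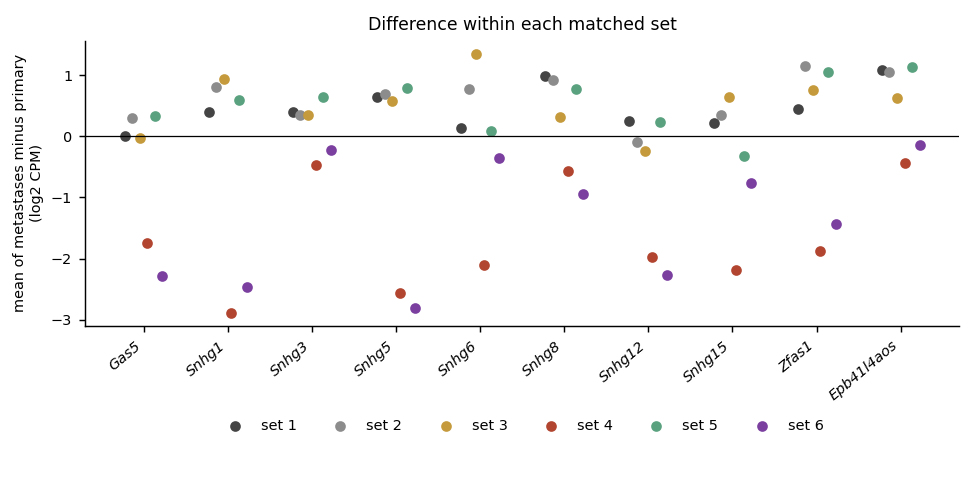
Difference between the mean of a set's metastases and its primary tumour in log2 CPM (vertical axis) for each host RNA (horizontal axis), with 1 coloured point per set and a line at 0. All 10 points of sets 4 and 6 lie below 0, and those of sets 1, 2, 3 and 5 lie mostly above, with medians of 0.40 to 0.74.

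A test of whether the difference varies between sets (edgeR, interaction of set and tumour type) was chosen after this pattern was seen, and takes its spread from the metastases of sets 1, 2, 3 and 6 since each set has 1 primary tumour. It called 3 of 10 members, Zfas1 (adjusted p = 0.0214), Snhg5 (adjusted p = 0.0367) and Snhg1 (adjusted p = 0.0490), beside 4.1% of all genes. The next were Snhg12 (edgeR adjusted p = 0.0718) and Gas5 (adjusted p = 0.115). The count was 0 without set 1, set 4 or set 6, beside 0.857%, 0.369% and 0.14% of all genes. It was 1 without set 2 (beside 9.66%), 3 without set 5 (5.76%), 5 without set 3 (7.5%) and 6 by DESeq2 (22.2%). With sets 4 and 6 both left out, a choice also made after seeing the data, 2 of 10 members rose in metastases, beside 9.84% of all genes (4.17% higher): Zfas1 by 0.83 ± 0.194 (edgeR adjusted p = 0.0185) and Epb41l4aos by 1.00 ± 0.236 (adjusted p = 0.0203). The median over members was then 0.72 and over all genes 0.02. With the skeletal muscle index (mean log2 CPM of its 12 markers) as a covariate over all 6 sets, 3 of 10 fell instead, beside 26.9% of all genes (11.6% lower): Gas5 (-1.24), Snhg1 (-1.21) and Snhg12 (-1.30). The muscle index is itself lowest in P4 and P6.

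**Figure D3:**
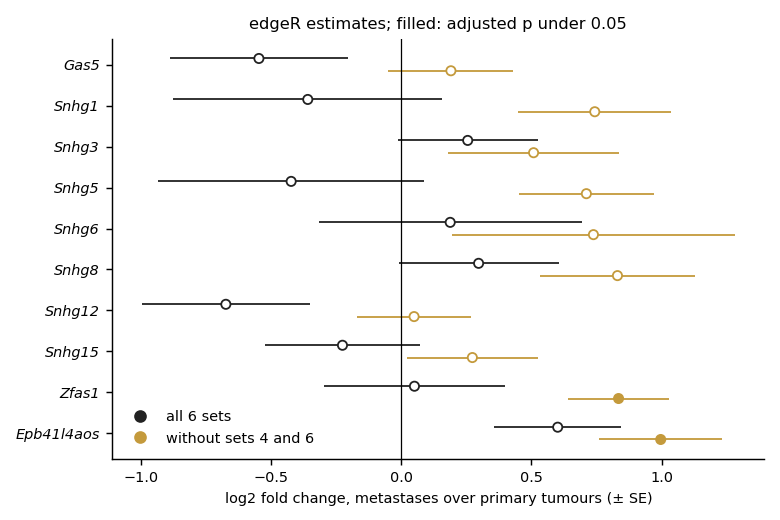
edgeR log2 fold change of lung metastases over primary tumours with its standard error (horizontal axis) for each host RNA (vertical axis), with all 6 sets in black and without sets 4 and 6 in yellow; filled points have an adjusted p under 0.05. Without sets 4 and 6 the 10 estimates are all above 0, and Zfas1 (0.83) and Epb41l4aos (1.00) are filled.

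Differences between sets among metastases alone were tested over the 12 metastases of sets 1, 2, 3 and 6. None of 10 members was called by edgeR, beside 0.321% of 19919 genes, none had an unadjusted p under 0.05, and DESeq2 also called 0, beside 25.1%. Snhg8 came nearest (unadjusted p = 0.0626, edgeR adjusted p = 0.188). Without set 2, 1 member was called, beside 12.2% of all genes: Snhg6 (adjusted p = 0.0350), whose M2-3 value of 134 CPM stands far above M2-1 (14.3), M2-2 (15.1) and M2-4 (33.4).

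The relation to ribosomal protein genes was taken against an index, the mean log2 CPM of 79 cytosolic ribosomal protein genes. Its order of libraries was not that of the host RNAs: P6 had the highest index of 20 libraries (5.52) and P4 the eighteenth (4.17), while the mean of the 10 members was highest in P4 (6.67) and second in P6 (6.31). The lowest index values were those of M4-1 (3.43) and M3-2 (4.07). With set and tumour type in the edgeR fit, the slope on the index passed for Snhg8 alone of the 10 members, at 1.70 ± 0.319 (SE, adjusted p = 0.0451), meaning 1.70 log2 units per log2 unit of the index, beside 0.309% of all genes (0.206% with a positive slope). Snhg5 (1.90 ± 0.710), Zfas1 (1.38 ± 0.490), Snhg12 (1.33 ± 0.455) and Epb41l4aos (0.95 ± 0.340) had an unadjusted p under 0.05 and adjusted p from 0.181 to 0.209 (edgeR). The median slope over members was 1.18 and over all genes -0.03. With sets 4 and 6 both left out, a choice made after seeing the data, these medians were -0.10 and -0.09. The slope of Snhg8 lost its call with DESeq2's size factors, with no count filter, with the summed ribosomal protein CPM as index, without sets 4 and 6, and without set 1, 2, 5 or 6, though it stayed between 1.37 and 1.79 in these fits, and 0 genes of any kind were called without set 1 or 2. It kept its call by DESeq2 (1.70), with the lung or muscle index as a further covariate (1.70 and 1.59), without set 3 or 4 (1.81 and 1.74) and, with a slope of 0.71, without the block. Without set 3, which holds M3-2, 8 of 10 members were called with positive slopes, beside 19.3% of all genes (7.01% positive).

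Over all 14 metastases and over all 20 libraries Snhg8 had the highest correlation with the index of the 10 members. Among the 14 metastases Pearson's r was 0.70 (permutation p = 0.0116, adjusted over 18452 genes 0.0365) and Spearman's rho 0.91 (p = 5e-05, adjusted p = 0.00384), and without M4-1 and M3-2, the 2 farthest from the median index, r was 0.80. Of all genes, 78.9% had a lower r than Snhg8 among the metastases and 79.2% over 20 libraries, so a relation of this size was common. Over 20 libraries r was 0.58 (permutation p = 0.00906, adjusted p = 0.0331) and rho 0.82 (p = 2e-05, adjusted p = 0.00193). Metastases of a set may share an animal, so these points are not fully independent. Of the other 9 members none reached an adjusted p under 0.05 in either group of libraries by r or rho (permutation, all 18452 genes). Snhg1 leaned the other way among metastases (r = -0.60, permutation p = 0.0335, adjusted p = 0.0799), and r was 0.15 without M4-1 and M3-2, so that value rests on these libraries. In the 12 metastases left, r was 0.87 for Gas5, 0.81 for Snhg12, 0.75 for Zfas1 and 0.73 for Epb41l4aos, against -0.20, 0.29, 0.47 and 0.09 in all 14.

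**Figure D4:**
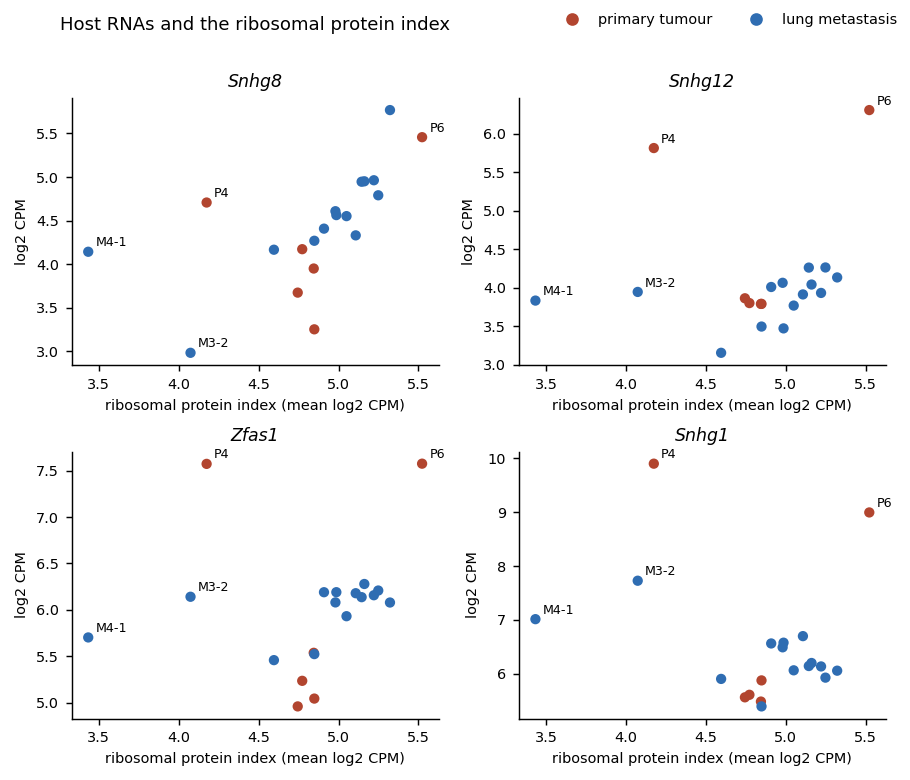
TMM-scaled log2 CPM of Snhg8, Snhg12, Zfas1 and Snhg1 (vertical axes) against the ribosomal protein index (horizontal axes) in 20 libraries, red for primary tumours and blue for metastases. Snhg8 rises with the index (r = 0.58 over 20 libraries), whereas P4, M3-2 and M4-1 combine a low index with Snhg1 levels of 956, 212 and 129 CPM.

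The members varied together more with P4 and P6 than without them. Over 20 libraries the 45 pairs of members had a median r of 0.58 on the log2 CPM scale, 44 of them positive, and the closest pair was Gas5 and Snhg12 (0.89). Without P4 and P6 the median was 0.36 with 35 positive pairs, the closest being Zfas1 and Epb41l4aos (0.83), and among metastases it was 0.26. The points share libraries, scaling and sets, so these values are a description. Snhg8 and Snhg6 had the lowest median r with the other members (0.34 and 0.35), and Snhg1 the highest (0.82). The r of Snhg8 ran from -0.04 with Snhg6 and 0.05 with Snhg3 to 0.49 with Epb41l4aos and 0.58 with Zfas1.

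The genes whose pattern was most like the mean of the members, among 10878 searched (mean log2 CPM of 2 or more), were Prmt6 (r = 0.94), an arginine methyltransferase, Bnip3 (0.94), a mitophagy receptor, and Hspa9 (0.93), a mitochondrial chaperone and itself a snoRNA host. Rpl21 (0.93), Steap1, Dtwd1, Ttc23, Tasp1, Znhit6 and Cwc27 (0.91) followed. Znhit6 is an assembly factor of C/D box snoRNA particles. For single members the most alike gene was Utp3 for Gas5 (0.95), Prmt6 for Snhg1 (0.96), Ptcd3 for Snhg3 (0.93), Tasp1 for Snhg5 (0.95) and Lactb2 for Snhg6 (0.96). It was Nfx1 for Snhg12 (0.93), Rpl9 for Snhg15 (0.94), Ankrd37 for Zfas1 (0.93), Nsmce2 for Epb41l4aos (0.87) and Cnot10 for Snhg8 (0.80), the lowest of the 10. All are Pearson's r over the 20 libraries, in which P4 and P6 weigh heavily.

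The snoRNAs themselves were in large part not countable. The annotation places 34 snoRNA genes inside the members on their strand, and 30 of these lie wholly within merged exons of the host. Of the 30, 29 had 0 counts in every library, and the exception was 1 of the 2 genes named Snora16a. The 3 that lie outside host exons were counted in every library, as was Snora73a, which lies partly inside. Depending on its setting, HTSeq drops a read that falls on more than 1 gene, and the sources used here do not give it. A 0 inside a host exon therefore says nothing about the snoRNA. Elsewhere a count of 0 allows up to 3 counts, or 0.0801 CPM in the library where this is lowest and 0.160 CPM where it is highest, for counting error only.

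Snord87, in an intron of Snhg6, is a C/D box snoRNA. It is shown because, of the snoRNAs counted in every library, its counts varied most closely with those of its host. Capitals mark the C box at base 11 and the D box at base 75.
Snord87, chr1:9942463-9942549, minus strand: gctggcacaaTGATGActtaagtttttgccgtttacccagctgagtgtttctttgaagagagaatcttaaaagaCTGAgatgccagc
Its level ran from 0.322 CPM in M1-1 to 3.85 CPM in P4, with M2-3 at 3.74 CPM, the same pair of libraries in which Snhg6 was highest. Over 20 libraries the log2 levels of Snord87 and Snhg6 had an r of 0.95. Counts were low, at 10 to 104 per library. Reads of unspliced Snhg6 over this intron may be among them, which was not tested. The log2 fold change of Snord87 between metastases and primary tumours was 0.44 ± 0.556 (SE, edgeR adjusted p = 0.651).

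Snora73a and Snora73b are the H/ACA snoRNAs of Snhg3 that act in processing of small-subunit ribosomal RNA. Their counts went in opposite directions relative to those of their host. Both snoRNAs are shown because they are near copies, the same in 198 of 205 bases (96.6%). Capitals mark the ACA box, 3 bases from the end.
Snora73a, chr4:132352775-132352979, minus strand: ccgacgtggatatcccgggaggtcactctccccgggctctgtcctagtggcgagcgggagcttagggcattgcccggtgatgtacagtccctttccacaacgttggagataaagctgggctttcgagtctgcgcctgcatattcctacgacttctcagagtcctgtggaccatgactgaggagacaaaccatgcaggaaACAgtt
Snora73b, chr4:132352322-132352526, minus strand: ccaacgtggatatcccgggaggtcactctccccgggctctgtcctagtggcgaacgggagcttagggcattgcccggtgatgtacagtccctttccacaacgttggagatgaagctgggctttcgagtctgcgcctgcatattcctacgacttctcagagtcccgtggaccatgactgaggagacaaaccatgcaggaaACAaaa
Snora73b was the most abundant, with a median of 241 CPM and a highest value of 800 CPM in M3-1, but it stood at 4.44 CPM in P4, 16.4 CPM in M3-2 and 16.8 CPM in M4-1. Those 3 libraries are the ones with the highest Snhg3 levels (42.2, 41.7 and 30.4 CPM) and with the lowest ribosomal protein index. Over 20 libraries r with Snhg3 was -0.72 for Snora73b and 0.74 for Snora73a, whose level was 0.199 to 0.859 CPM (4 to 27 counts). Reads that cannot be placed between copies this alike make the split between the pair uncertain. Of the 205 bases of Snora73a 159 lie in exons of Snhg3, against 0 of Snora73b, so the pair was not counted alike. The few counts of Snora73a may include reads of the host, which was not tested. The edgeR log2 fold change of Snora73b between metastases and primary tumours was 1.02 ± 0.499 (adjusted p = 0.188). Gm23639, in an intron of Epb41l4aos, rose from 1.96 ± 0.949 CPM (SD, n = 6) in primary tumours to 7.36 ± 4.68 CPM (SD, n = 14) in metastases (1.92 ± 0.445 SE, edgeR adjusted p = 0.0108), and its r with its host was 0.16.

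**Figure D5:**
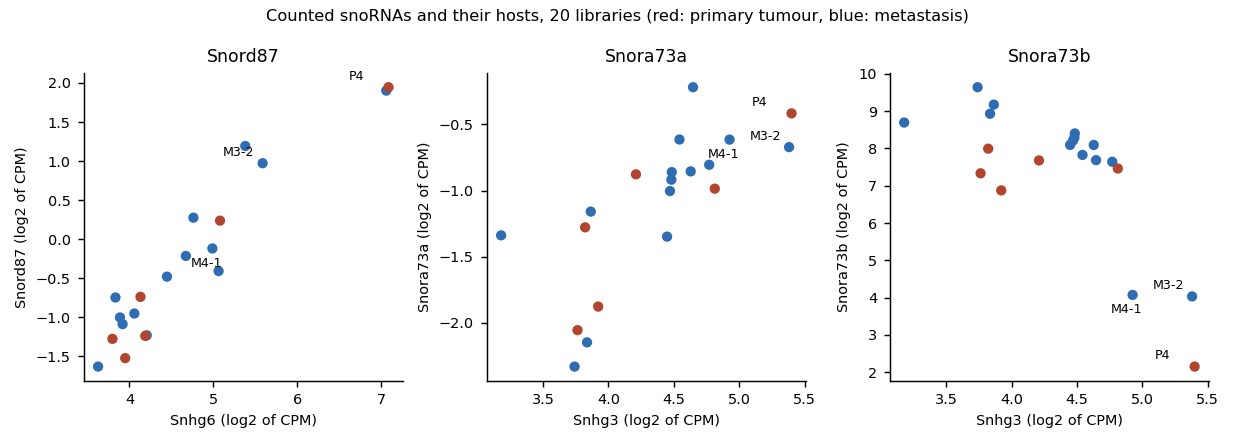
Log2 of CPM of 3 snoRNAs (vertical axes) against log2 of CPM of their host RNAs (horizontal axes) in 20 libraries, red for primary tumours and blue for metastases. Snord87 follows Snhg6 (r = 0.95), while Snora73b is low in P4, M3-2 and M4-1 (4.44, 16.4 and 16.8 CPM), where Snhg3 is highest.

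Genes that work with the hosts were read from the same edgeR test between metastases and primary tumours, in which 7.34% of all genes rose and 6.44% fell. Of 7 further non-coding hosts measured, 2 rose: Snhg11 by 3.35 ± 0.792 (adjusted p = 0.0121) and Snhg9 by 1.94 ± 0.532 (adjusted p = 0.0259), Snhg9 at under 2 CPM in every library. The others include Snhg18 (0.43 ± 0.339, adjusted p = 0.438). Of 20 protein-coding hosts outside the ribosomal proteins 1 fell, the translation initiation factor gene Eif4a2 (-0.89 ± 0.241, adjusted p = 0.0233), and the list's median was -0.12. Of 79 ribosomal protein genes 2 fell, Rpl13a (-0.99 ± 0.241, adjusted p = 0.0141) and Rpl15 (adjusted p = 0.0409, from 106 ± 135 CPM to 32.9 ± 16.8 CPM), and the list's median was -0.17. Of 19 snoRNA particle proteins and assembly factors 1 rose, Rpap3 (1.03 ± 0.194, adjusted p = 0.00381), a cofactor of the chaperone complex that assembles snoRNA particles.

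Among 22 factors of nonsense-mediated decay and its decapping step none rose and 2 fell, both of them decapping genes: Dcp2 (-1.02 ± 0.181, edgeR adjusted p = 0.00296) and Dcp1a (-0.41 ± 0.115, adjusted p = 0.0281). Of 17 transcripts known as sensitive to that decay, which include the ribosomal protein genes Rps9, Rpl3 and Rpl12, 6 fell and none rose, where 6.44% of all genes fell. The 6 were Trib3 (-2.10 ± 0.397), Ddit3 (-1.77 ± 0.416), Chac1 (-1.56), Asns (-1.13), Tbl2 (-0.86 ± 0.188) and Srsf7 (-0.62). Trib3, Ddit3, Chac1 and Asns are also textbook targets of the Atf4 stress response, and Srsf7 is a splicing factor. The mean log2 CPM of the 17 was highest in P6 (6.99) and second in P4 (6.29), against 5.48 to 5.74 in the other 4 primary tumours and 4.55 to 5.89 in metastases. In P6, 15 of the 17 lay above the other 4 primary tumours and 0 below. In P4, 11 lay above and 5 below, among them Gabarapl1 (31.0 CPM, against 78.9 to 107.7 CPM). No share over all genes is given for these counts, so they are a description. Many other genes were high in both tumours. Of all genes tested, 9.47% exceeded the median of the other 4 primary tumours at least 2-fold in P4 and P6 alike. Trib3 stood at 130 CPM in P6 and 31.7 CPM in P4, against 9.78 to 18.2 CPM in P1, P2, P3 and P5 and at most 11.96 CPM in metastases.

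Of 17 translation factor genes with TOP mRNAs 1 rose, Eif3h (0.82 ± 0.208, edgeR adjusted p = 0.0170). Of 16 genes of the mTOR pathway and Larp1, the protein that binds TOP mRNAs, 1 rose, the mTOR inhibitor Deptor (2.07 ± 0.305, adjusted p = 0.00113). Of 22 genes of Myc and ribosome biogenesis none rose or fell. P4 had the lowest mTOR list mean of 20 libraries (5.24) and the second lowest for Myc and ribosome biogenesis (4.09). The tumour richest in host RNAs was thus low in these lists, whereas P6 lay higher in both (6.12 and 5.44). M4-1, the metastasis of P4's set, was low in both lists too (5.43 and 3.97), with a mean of the 10 members of 4.99, against 6.67 in P4. Of 16 cell cycle genes none rose and 5 fell, Cdc6, Cdc45, Ttk, Mki67 and Top2a, and P6 (6.98) and P4 (6.85) had the highest means of 20 libraries. Lung epithelial markers rose in 12 of 14 cases, erythroid markers in 8 of 8 and macrophage markers in 2 of 10, while 8 of 12 muscle, 4 of 12 T and NK cell and 4 of 10 matrix and fibroblast markers fell and none of 9 B and plasma cell markers was called. Lung epithelial markers summed to 64.5 to 108.6 CPM in P1, P2, P3 and P5 and to 108 to 14433 CPM in metastases, and their part in the values above was not tested, beyond fits with their index as a covariate. Those called 0 of 10 members between types (beside 8.3% of all genes) and 0 of 10 between sets of metastases (beside 11.9%). They left Snhg8 with its slope on the ribosomal protein index (1.70, edgeR adjusted p = 0.0335). In the first of these fits Snhg6 moved from 0.19 to 1.66 ± 0.586 (edgeR adjusted p = 0.0904).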

How the data were processed

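The authors deposited raw read counts in 1 table of 51826 genes and 20 libraries, with no scaling. Per the submitters' processing notes, Trimmomatic 0.36, STAR (version given as 5.5.4b) and HTSeq were used with mm10; per the labels' protocols, libraries were stranded and depleted of ribosomal RNA. The sources used here do not give the annotation release or the settings for strand, overlaps and multi-mapped reads. Versioned identifiers were matched to symbols in GENCODE vM21 (51633 matched; the 193 others held 0.017% of counts), and all 10 members passed the filter.

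From the counts, edgeR 4.0.16 in R 4.3.3 (filterByExpr, minimum count 10; TMM; robust quasi-likelihood; log2 CPM with prior count 2) tested 18452 genes, with Benjamini-Hochberg adjustment over all and a threshold of 0.05. The comparison of types had the matched set as a block, from the design text and titles (mean correlation of deviations of a primary tumour and its own metastases 0.0826 over 1000 genes, -0.163 to 0.375 by set) and 13 residual degrees of freedom. The slope on the ribosomal protein index had set and type in the fit, and sets were compared over 12 metastases. Correlations used 100000 permutations, all two-sided. DESeq2 1.42.0, other scaling, no filter, no block, tissue covariates, summed metastases and leaving out each set were alternatives. Members and gene lists (311 of 314 symbols found) were chosen with earlier results of these data known. Genes outside the members were named by rule: the 3 of smallest p in each list, the 10 most like the mean of the members and the 1 most like each member. Those of the marker and biogenesis lists are given as counts, and others (Srsf7, Chac1, Asns, Mki67, Top2a) were named after their values were seen.

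On simulated counts for the comparison of types (18284 genes), recovery was 0% at 1.5-fold, 34% at 2-fold, 60% at 4-fold and 84% at 8-fold (50 genes each), and 1 of 90 calls was false. For the slope (18276 genes) the same folds were set per log2 unit of the index, and 0%, 0%, 12% and 38% were recovered with 1 of 26 calls false. For the test between sets (18412 genes) they were set for set 1 against the others, and 0%, 0%, 20% and 52% were recovered with 0 of 36 false. The simulated counts for types and slope held no differences between sets, unlike the data. Start regions came from RefSeq (GRCm38.p6) and snoRNA sequences from the GENCODE transcripts.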

Additional observations from a re-analysis of the deposited data

Results flagged for a closer look

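Zfas1 (adjusted p = 0.0214), Snhg5 (adjusted p = 0.0367) and Snhg1 (adjusted p = 0.0490) passed edgeR's test that the difference between metastases and primary tumours varies between sets, with the primary tumour low in sets 1, 2, 3 and 5 and high in sets 4 and 6. That test was chosen after the pattern was seen and has 1 primary tumour in each set with no spread of its own. It called 0 of 10 members without set 1, set 4 or set 6, beside 0.857%, 0.369% and 0.14% of all genes. Snhg12 in M1-1 lay far below the other 3 metastases of set 1 on the log2 CPM scale, with a gap of 0.831 of the whole range (11.2 CPM, against 17.5 to 19.1 CPM). Zfas1 in M2-1 lay below the other 3 metastases of set 2, with a gap of 0.873 of the range, but the range is small (61.0 CPM, against 71.3 to 73.0 CPM). Dixon's test was applied to 30 groups of values, and chance flags about 1 group in 20.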

How the results depend on the processing

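The comparison of types called 0 of 10 members with DESeq2's size factors (beside 13.8% of all genes), no filter (5.23%), summed metastases (2.04%) and the lung epithelium covariate (8.3%). It called 1 by DESeq2 (22.9%) and 1 with the ribosomal protein index as covariate (13.7%), each time Epb41l4aos. It called 3 with the muscle covariate (26.9%), 2 without sets 4 and 6 (9.84%) and 0 to 1 with each set left out (the 1 without set 4, beside 12.2%). With no replicate block, the pairing ignored, it called 2 (13.5%). The slope on the ribosomal protein index was called for 0 members with DESeq2's size factors (0.13%), no filter (0.0144%), the summed index (0.509%) or sets 4 and 6 left out (7.03%). It was called for 3 by DESeq2 (10.3%) and for 0 to 8 with each set left out (the 8 without set 3, beside 19.3%). Without set 1, 2, 5 or 6, 0 to 3 genes in all were called. The test between sets of metastases gave 0 to 1 with each set left out (the 1 without set 2, beside 12.2%). The interaction gave 6 by DESeq2 (22.2%) and 0 to 5 with each set left out (the 5 without set 3, beside 7.5%). The 0 without set 1, 4 or 6 stood beside 0.857%, 0.369% and 0.14% of all genes. The muscle covariate, sets 4 and 6 left out together and the interaction were chosen after seeing the data.

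The log2 fold change turned direction for Snhg1 (0.089) and Snhg15 (0.42) with the lung covariate, for Snhg3 (-0.21), Snhg8 (-0.035) and Zfas1 (-0.53) with the muscle covariate, for Snhg6 (-0.27) and Zfas1 (-0.42) without the block, and for Gas5 (0.19), Snhg1 (0.74), Snhg5 (0.71), Snhg12 (0.050) and Snhg15 (0.27) without sets 4 and 6. With 1 set left out at a time it ranged from -0.70 to 0.30 for Snhg1 (positive without set 4 or 6), -0.76 to 0.30 for Snhg5 (positive without set 6), -0.40 to 0.076 for Snhg15 (positive without set 4), -0.078 to 0.53 for Snhg6 (negative without set 2 or 3) and -0.20 to 0.47 for Zfas1 (negative without set 1, 2, 3 or 5). Epb41l4aos kept its direction in each of the 15 alternatives. The slope turned without the block for Gas5 (-0.21), Snhg1 (-0.67), Snhg3 (-0.40), Snhg5 (-0.10), Snhg6 (-0.88) and Snhg15 (-0.075), and without sets 4 and 6 for the same genes (-0.27, -0.85, -0.27, -0.045, -1.07 and -0.15). It also turned for Snhg3 with the muscle covariate (-0.35) and for Snhg6 without set 4 (range over sets left out -0.24 to 1.16). The causes were not tested. Each set has 1 primary tumour, so its spread rests on 6 libraries, and changes of 1.5-fold were not recovered in simulated data.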
